A study of Arabidopsis thaliana with 2 samples.

Results

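Plants dispose of foreign and reactive compounds in steps. Cytochrome P450 monooxygenases of the endoplasmic reticulum oxidise a compound, glutathione transferases join it to the tripeptide glutathione, and UDP-glycosyltransferases (UGTs) join it to a sugar. The conjugates are then moved into the vacuole by membrane transporters. These enzymes also act on the plant's own hormones, phenolics and defence compounds, and in leaves many of them are known to respond to oxidative stress, herbicides and pathogens.

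Described here are 7 genes of these enzyme classes, chosen by name from the platform's annotation: the glutathione transferases GSTF3 and GSTU16, the glucosyltransferases UGT73B1, UGT73C1 and AT4G15260, and the P450 genes CYP71B6 and CYP71B28. Each is represented by 1 probe set, a group of short oligonucleotides read as a single signal, so the genes account for 7 of 8297 probe sets on the array and 7 of 3602 named genes. They were put together with their signals already known, and their own values are therefore given as a description with no test. The names UGT73 and CYP71B follow gene symbols. AT4G15260 has no symbol in the tables used, which do not place it in the UGT73 family, and it is taken as a glucosyltransferase only because the choice of genes lists it so.

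The series asks how nitric oxide acts in plants, and compares 1 array of the group coded NOT with 1 array of the group coded WDC. Both arrays were hybridised with RNA from rosette leaves of Arabidopsis thaliana of the ecotype Col-0, stock N933 in the labels, at growth stage 3.5. Stratification lasted 1 week at 4 °C, and the plants then grew on compost at 22 °C in continuous light (24 h). Each sample pooled 4 experiments of about 8 leaves, as stated with the NOT sample, while the series text gives 8 pooled plants. The labels name a control but do not tie it to either code and give no agent, dose or time, so ratios are always NOT over WDC and no array is named as the treated one. A single array per group leaves every difference without a check by replicates and without a p-value.

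Signals are linear intensities, which the authors had scaled so that the trimmed mean was 100.1 on both arrays. Median signals were 22.0 on NOT and 23.7 on WDC. A floor was set at the 40th percentile of all signals other than controls, 12.5, and a ratio was taken only where both signals lay above it. Where a single signal lay above the floor, the brighter signal over the floor gives the least fold that the values allow. For 93 genes with several probe sets, the log2 ratios within a gene scattered by 0.20 (SD). This is a measure of probe noise that leaves out variation between plants and between hybridisations. Distances given in units of this SD are therefore no measure of significance. All 6 leaf markers with a named probe set, genes of light harvesting and carbon fixation such as RCA and LHCB4.1, lay above the floor on both arrays and within 1.5-fold. The root marker BGLU21 read 1.0 on NOT and 1.1 on WDC. No flower or seed marker of the lists had a named probe set.

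The 7 genes did not all lie on one side. Both glutathione transferases and both P450 genes were brighter on NOT, as was AT4G15260, whereas UGT73B1 and UGT73C1 were brighter on WDC. Of the 5 genes above the floor on both arrays, GSTF3 was at least 1.5-fold higher on NOT, UGT73B1 was at least 1.5-fold lower, and the other 3 lay within 1.5-fold. Of all 4753 probe sets with a ratio, 5.87% passed the 1.5-fold rule on the higher side and 8.73% on the lower side. The other 2 genes have a bound only. In pooled leaves, fewer cells of a type and less RNA per cell cannot be told apart.

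**Figure D1:**
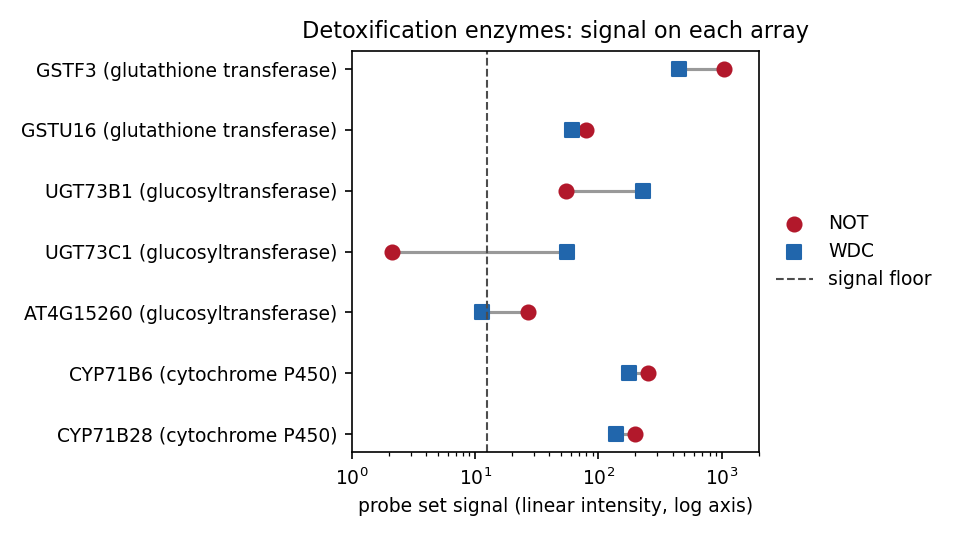
Signal of each of the 7 probe sets on the NOT array (circles) and the WDC array (squares), as linear intensity on a log axis, with the signal floor of 12.5 dashed. The circle lies right of the square for both glutathione transferases, both P450 genes and AT4G15260, and left of it for UGT73B1 and UGT73C1.

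GSTF3 encodes a glutathione transferase of the phi class, close in sequence to GSTF2. Its signal was 1041.0 on NOT and 450.1 on WDC. The NOT signal was 2.31-fold higher, a log2 ratio of 1.21, and 31 of the 4753 probe sets had a higher ratio. In the brightest of 4 equal classes by mean signal, which holds GSTF3, 1.6% of probe sets were at least 2-fold higher on NOT, compared with 1.41% of all. The probe set is marked as matching members of a gene family, so transcripts of related transferases can add to both signals and the ratio cannot be assigned to GSTF3 alone.

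GSTU16 encodes a transferase of the tau class, a class found in plants that takes in many enzymes of herbicide and stress response. Its signal was 80.1 on NOT and 60.7 on WDC, a log2 ratio of 0.40. This is 1.32-fold and falls short of the 1.5-fold rule, and 12.5% of probe sets had a ratio as high or higher. Its distance from equal signals was 2.03 times the SD between probe sets of a gene. The probe set carries no mark for shared sequence.

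Of 52 glutathione transferase and dehydroascorbate reductase genes found by symbol in the RefSeq gene table, 3 had a named probe set, and the third was GSTU18, another tau enzyme. GSTU18 read 48.8 on NOT and 39.5 on WDC, a log2 ratio of 0.31. The median of the 3 log2 ratios was 0.40, beside 0.00 over all probe sets. Since GSTF3 and GSTU16 are themselves 2 of the 3, and the other transferases are not analysed here, this median is no statement about the family. Of 6 listed genes of glutathione metabolism, 2 had a named probe set. The chloroplast and mitochondrial glutathione reductase GR (AT3G54660) stood at 0.96 (log2) with a probe set that bears a shared-sequence mark, and the cytosolic reductase GR1 at -0.51.

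UGT73B1 gave the lowest ratio of the 5. The UGT73B enzymes transfer glucose to flavonoids and other phenolic compounds. Its signal was 54.4 on NOT and 231.7 on WDC, so that it was 4.26-fold lower on NOT, with a log2 ratio of -2.09. Both signals were clear of the floor, at 4.35 and 18.5 times its value. In all, 29 of 4753 probe sets had a lower ratio, and 3.32% were at least 2-fold lower (4.29% in the second brightest of the 4 signal classes, which holds UGT73B1). The distance from equal signals was 10.6 times the SD between probe sets of a gene.

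UGT73C1 belongs to a cluster of UGT73C genes on chromosome 2 and is known to add glucose to cytokinins and to the explosive trinitrotoluene. It read 2.1 on NOT, below the floor, and 55.8 on WDC. The WDC signal was 4.46 times the floor, so the gene was at least 4.46-fold lower on NOT. Of 242 probe sets above the floor on WDC only, 15.7% had a bound of at least 2-fold. That mark is lower than the bound of UGT73C1, so the share does not show how usual a bound of 4.46-fold is. The size of this bound is set by the floor. With the floor raised to the 60th percentile (40.1) it shrank to a log2 value of -0.48, inside the 1.5-fold rule, and with the floor at the 25th percentile (4.3) it grew to -3.70.

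The adjacent gene in the RefSeq gene order is UGT73C2. Its probe set read 0.3 on NOT and 0.2 on WDC, below the floor on both arrays, so it gives no ratio.

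AT4G15260 was the only glucosyltransferase of the 3 that was brighter on NOT. Its signal was 27.1 on NOT and 11.3 on WDC, and the WDC value lay just below the floor of 12.5. The gene was at least 2.17-fold higher on NOT. Of 141 probe sets above the floor on NOT only, 8.51% had a bound of at least 2-fold. With the floor at the 25th percentile both signals were measured and the log2 ratio was 1.26, and with the floor at the 60th percentile both lay below it and no value remained. The genes that follow it in the gene order, AT4G15270 and UGT71B5, gave 11.2 and 1.8 on NOT and 10.4 and 1.8 on WDC, all below the floor.

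Among genes with a UGT symbol or synonym, 22 of 64 had a named probe set, AT4G15260 not included. Of these 22, 13 lay above the floor on both arrays, 1 (UGT73C1) on WDC only and 8 on neither. Of the 13, 1 passed the 1.5-fold rule on the higher side and 2 on the lower side, UGT73B1 among them, and 10 lay within it. Of all 1937 named genes above the floor on both arrays, 91 were higher by this rule, 176 were lower and 1670 lay within it. The median log2 ratio of the 13 was -0.03 beside 0.00 over all probe sets (0.12 beside 0.14 with scaling to the spiked-in controls). Without UGT73B1 and UGT73C1 the median of the 12 others was -0.02. UGT73B1 had the lowest ratio of the 13.

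UGT72E1, which glucosylates coniferyl aldehyde of the lignin pathway, had the highest ratio, 1.51. UGT74B1 of glucosinolate synthesis followed at 0.42, with 223.7 on NOT and 167.0 on WDC. UGT85A2 stood at 0.40 and UGT71C2, with 16.4 and 15.2 near the floor, at 0.11. On the lower side UGT74D1, which glucosylates auxins, read 19.9 on NOT and 34.9 on WDC, a log2 ratio of -0.81. UGT84A3, an enzyme that makes glucose esters of sinapic acid and related phenolic acids, read 196.7 and 294.1, and its log2 ratio of -0.58 was just short of the 1.5-fold rule (-0.62 and past it with loess). The neighbouring UGT84A4 stood at -0.35. The other 5 genes above the floor had log2 ratios between -0.29 and 0.01.

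**Figure D2:**
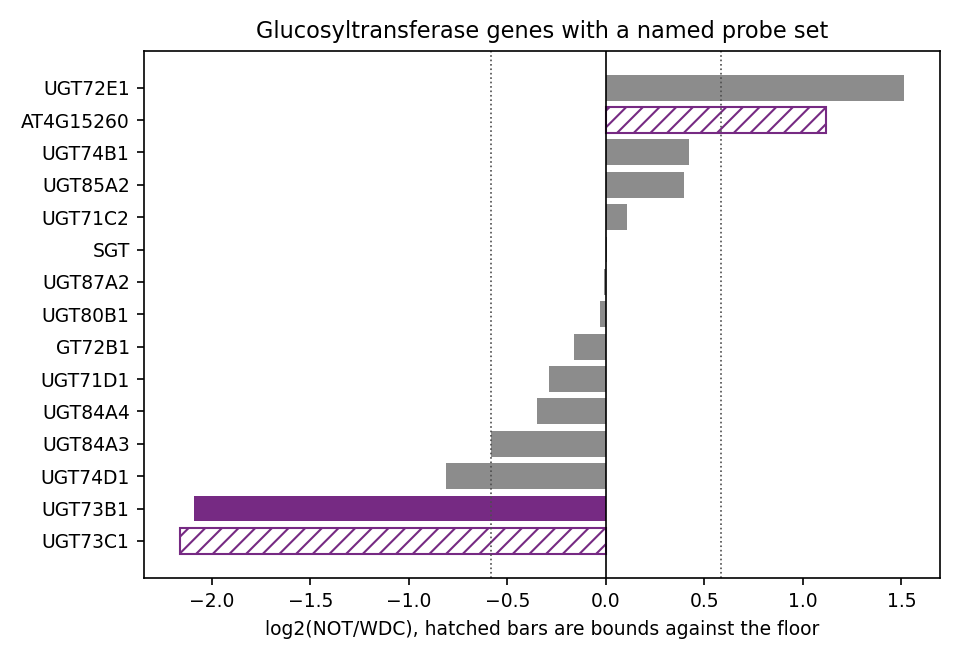
Log2(NOT/WDC) of the 14 UGT genes above the floor on at least 1 array and of AT4G15260. Purple marks UGT73B1, UGT73C1 and AT4G15260, grey the other genes, hatching a bound against the floor and dotted lines the 1.5-fold rule. UGT73B1 at -2.09 and the bound of UGT73C1 at -2.16 are the lowest values, and UGT72E1 at 1.51 is the highest.

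The P450 genes were close to each other. CYP71B6 encodes an enzyme known to turn indole-3-acetonitrile, a product of indole metabolism in defence, into indole-3-carboxylic acid. Its signal was 252.7 on NOT and 176.5 on WDC, a log2 ratio of 0.52, and the probe set is marked for similar sequence. CYP71B28 belongs to the same subfamily. It read 196.9 on NOT and 140.4 on WDC, a log2 ratio of 0.49, and its probe set has no such mark.

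These ratios are 1.43-fold for CYP71B6 and 1.40-fold for CYP71B28, short of the 1.5-fold rule, and 7.72% and 8.86% of all probe sets had a ratio as high or higher. Their distances from equal signals were 2.63 and 2.48 times the SD between probe sets of a gene. Scaling the arrays to the spiked-in hybridisation controls, which raised the median over all probe sets to 0.14 (log2), moved them to 0.66 and 0.63, past the rule. Of 251 P450 genes found by symbol in the RefSeq table, 1 more had a named probe set, CYP71B29, the gene next to CYP71B28. It read 16.8 on NOT and 11.8 on WDC, on either side of the floor, and was at least 1.34-fold higher on NOT. The 3 named CYP71B probe sets were all brighter on NOT. With a median log2 ratio of 0.00 over all probe sets, that side alone does not set them apart. For CYP71B29 the values at the reported floor give a least fold and no upper limit. With the floor at the 25th percentile both its signals were measured, and the log2 ratio was 0.51. With the offset its bound was 0.30 (log2).

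**Figure D3:**
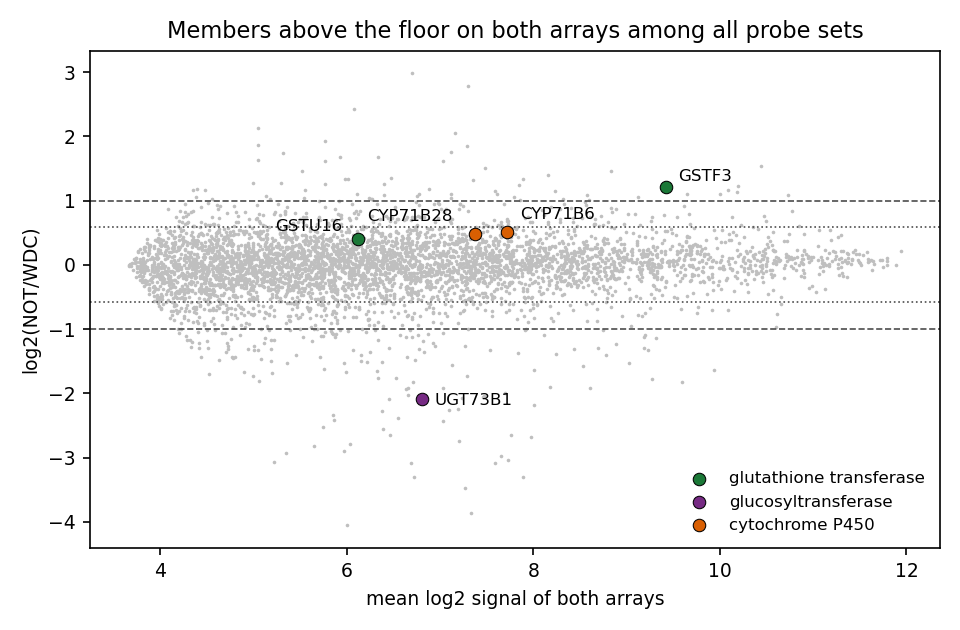
Log2(NOT/WDC) against the mean log2 signal of both arrays for 4753 probe sets above the floor on both (grey), with the 5 detoxification genes among them coloured by enzyme class. Dashed lines mark 2-fold and dotted lines 1.5-fold. GSTF3 (1.21) lies above the upper dashed line and UGT73B1 (-2.09) below the lower one, and GSTU16, CYP71B6 and CYP71B28 lie between 0 and the upper dotted line.

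Other steps of detoxification could not be described. None of 88 genes with a symbol of ABC transporter classes B, C and G, which carry conjugates across membranes, had a named probe set. The same held for 8 listed electron donors of P450 enzymes, 16 listed marker genes of the response to foreign compounds and oxylipins, and 12 listed TGA transcription factors and partners, which are known to bind as-1 elements in promoters of glutathione transferase genes. Of 8247 probe sets other than controls, 4383 have no gene name here, and 70 that name several genes were not counted as named. The listed genes may be among these probe sets or absent from the array, and were not analysed.

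The genes nearest to each enzyme in the plane of both log2 signals were found among 1937 named genes above the floor on both arrays, as a likeness over 2 arrays only. Signals of different probe sets are not on a common scale, so this likeness is a property of the array values. GSTF3 had no close neighbour, and the nearest were AT2G37130 (log2 ratio 0.78) and the beta-glucosidase BGLU25 (0.75), at distances of 0.31 and 0.38. The nearest to UGT73B1 were the zinc finger factor ZAT7 (-1.91) and AT2G32200 (-2.42), at 0.25 and 0.39. GSTU16, CYP71B6 and CYP71B28 lay in denser parts of the plane. Their nearest genes were PRA1.E and AT3G26590, AT1G21770 and AT2G25730, and ACLA-3 and THFS, at distances from 0.03 to 0.07.

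The order of the log2 ratios, from lowest to highest, was UGT73B1, GSTU16, CYP71B28, CYP71B6 and GSTF3. GSTU16, CYP71B28 and CYP71B6 lay within 0.12 of each other, less than the SD of 0.20 between probe sets of a gene. GSTF3 and UGT73B1 each lay apart from these 3 by more than that SD. Across 9 other settings of scaling, floor, offset and probe sets, none of these 5 genes changed direction where it was measured. Most of the settings could not turn them. Changing the floor, removing shared probe sets or averaging probe sets leaves such a ratio as it is. An offset added to both signals cannot change its sign. Median and control scaling moved all ratios by a common amount, smaller than any of these 5. The direction of a bound is fixed by which signal lies above the floor, so the bounds of UGT73C1 and AT4G15260 could not turn. Leaving out probe sets with a mark for shared sequence removed GSTF3 and CYP71B6 altogether.

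**Figure D4:**
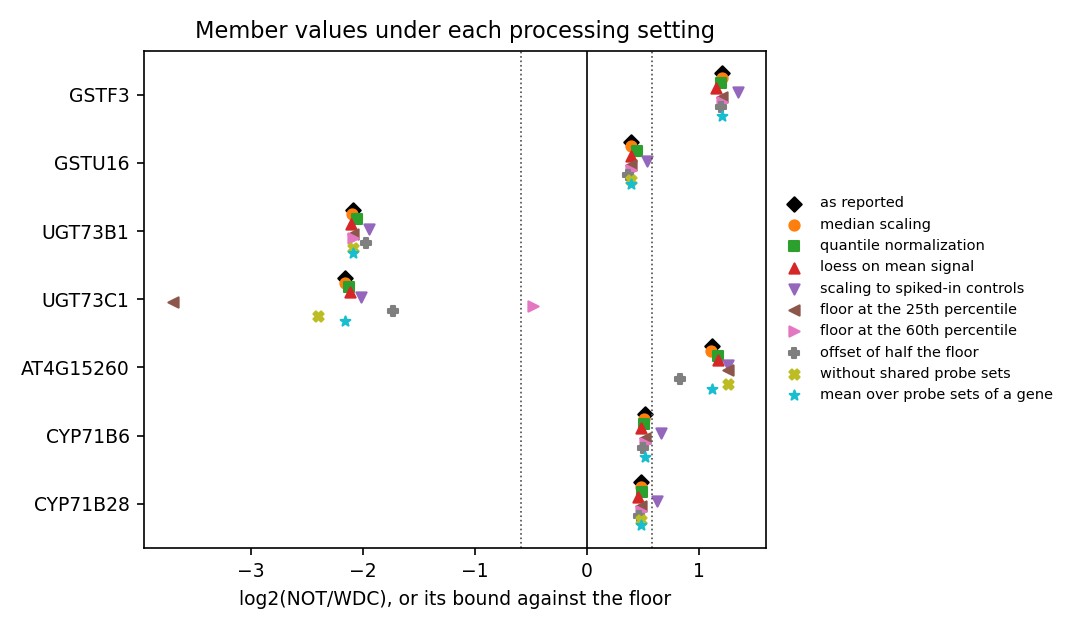
Log2(NOT/WDC) of each gene, or its bound for UGT73C1 and AT4G15260, as reported (black diamonds) and under 9 other settings (coloured), with dotted lines at 1.5-fold. The points of GSTF3 run from 1.15 to 1.35 and those of UGT73B1 from -2.11 to -1.95, while those of UGT73C1 spread from -3.70 to -0.48 with the floor.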

How the data were processed

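Per the labels, biotin-labelled cRNA of 2 samples was hybridised to 2 one-colour arrays. The deposited values are 1 linear intensity per probe set and array, without detection calls. The authors had scaled them, as judged from the equal trimmed means (2% cut at each end), and the summarising software is not stated in the sources used. Scanner background averaged 75.02 on NOT and 76.78 on WDC, per the labels. Precision is limited by the number of arrays.

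The 50 control probe sets among 8297 did not enter. Of the rest, 3794 named 1 gene in the platform annotation, 70 several and 4383 none, and 3784 were matched by gene ID to a RefSeq table (TAIR10.1), which served for symbols and for the order of genes. Ratios were taken above the floor without offset, and the brightest probe set stood for a gene that has several. No test fits 1 array per group. Named genes are the 7 members, genes of fixed lists above the floor (the 4 highest and 4 lowest for the UGT list), tandem neighbours, and the 2 nearest genes per member. BGLU21, a root marker below the floor, is named outside this rule and was chosen after its values were seen. Members and lists were chosen with earlier results of these data known. Alternatives were median, quantile, loess (span 0.4) and spiked-in control scaling, the 25th and the 60th percentile as floor, 6.25 added to both signals, removal of shared probe sets and the mean of probe sets. On simulated data only the 2-fold rule was tried, with large changes placed in bright probe sets. The 1.5-fold rule, the bounds and changes in dim genes were not simulated. Python 3.11.15 was used with statsmodels 0.14.6 for loess, numpy 2.4.6 and pandas 2.3.3.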

Additional observations from a re-analysis of the deposited data

How the results depend on the processing

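Of 60 alternative values for the 7 genes, 55 moved by less than the SD between probe sets of a gene. None turned, but many of these values could not move. Each gene has 1 probe set, so the mean of probe sets changed nothing, and a changed floor leaves a measured ratio as it is. The sign of a bound is fixed by its construction. The values that moved further were bounds. That of UGT73C1 was -3.70 with the 25th percentile floor, -0.48 with the 60th, -1.73 with the offset and -2.40 without shared probe sets, and that of AT4G15260 was 0.83 with the offset, as their construction from the floor makes them. The 1.5-fold count of glutathione transferases went from 1 to 0 without shared probe sets, which drops GSTF3, and their median to 0.80 with the 60th percentile floor, which drops GSTU18. The count of lower UGT genes was 1 with that floor, and 2 P450 genes were higher with control scaling. A changed floor also changes how many probe sets have a ratio. They were 4753 as reported and with control scaling, 5892 with the 25th percentile floor and 3113 with the 60th. Counts at different floors are therefore not shares of 1 total. Over these probe sets, the 2-fold counts of 67 higher and 158 lower became 106 and 242 with the 25th percentile floor. They were 43 and 81 with the 60th, and 104 were higher with control scaling. At 1.5-fold, 279 higher and 415 lower became 182 and 211 with the 60th, 504 higher with control scaling and 625 lower with the 25th. Signal over background limits the ratios of genes near the floor. No paired analysis was possible because each group has 1 array.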
